A study of Mus musculus with 4 samples.

Results

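The Z-disc is the plate at either end of a sarcomere in which the actin filaments of neighbouring sarcomeres are anchored. A set of 10 genes for its proteins (Tcap, Myot, Myoz1, Myoz2, Myoz3, Ldb3, Actn2, Actn3, Csrp3 and Synpo2l) was read out on 4 two-colour Agilent arrays by taking every non-control probe that the scanner output assigns to one of these symbols. They are 10 of the 27597 genes on the arrays and had 14 of the 41174 probes, of which 13, from 9 genes, were bright enough to be tested among 26577 probes. Totals of genes are counts of distinct names, including array names without a RefSeq match. The cells were C2C12, an established line of mouse myoblasts that fuses into myotubes when serum is lowered, and the results therefore come from 1 line in culture. Both groups were expanded in medium with 10% fetal bovine serum before being kept for 6 days in differentiation medium. The GDF8 group received 20 nM recombinant mouse GDF8 (myostatin) every 24 h for those 6 days, and the untreated group received none. For the horse serum in that medium the labels give 2% in one field and 10% in another. Each array held 1 GDF8 RNA and 1 untreated RNA, called replicates 1 to 4 by the labels, with GDF8 in Cy5 on replicates 2 and 3 and in Cy3 on replicates 1 and 4. The labels call the replicates biological without saying whether the cultures were separate, so the spread below is that between these samples. The question of the comparison is how myostatin, given throughout differentiation, changes the level of these transcripts.

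In the Z-disc, alpha-actinin (Actn2, Actn3) crosslinks the actin filaments and also binds titin, whose end is capped by telethonin (Tcap). Myotilin (Myot), the myozenins (Myoz1 to Myoz3) and cypher/ZASP (Ldb3) bind alpha-actinin or its partners, and the LIM protein Csrp3 binds telethonin and alpha-actinin. Myozenins also bind the phosphatase calcineurin, for which they are called calsarcins. Myostatin is a ligand of the TGF-beta family that restrains muscle growth, and it signals through activin receptors and SMAD transcription factors.

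After 6 days of differentiation with GDF8, 7 of the 9 tested Z-disc genes had at least 1 probe that fell, against 2.53% of all 17444 genes tested. Actn2 fell 2.62-fold, Tcap 2.45-fold and Myot 2.18-fold, followed by Ldb3, Myoz2, Myoz1 and Csrp3 at 1.97-fold or less. Counted by probe, 10 of 13 fell, against 1.95% of all 26577 probes, and none rose, against 0.771% of all probes and 1.03% of all genes. As members and lists were chosen with earlier results of these data known, such shares describe the chosen genes and do not test them. All 13 limma estimates lay below 0. The median log2 ratio of GDF8 over untreated was -0.78 over the 13 probes and 0.01 over all probes tested. Synpo2l and Actn3 did not pass the threshold, and Myoz3 was too dim to be tested. Unless called a signal, a value is the log2 ratio of the GDF8 to the untreated channel, ± is the standard error from limma (n = 4 arrays), and adjusted p-values are limma's, by Benjamini-Hochberg over all 26577 probes, called at 0.05. In RNA from whole cultures, a lower ratio can come from fewer cells that carry the transcript or from less of it per cell, and these cannot be told apart.

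**Figure D1:**
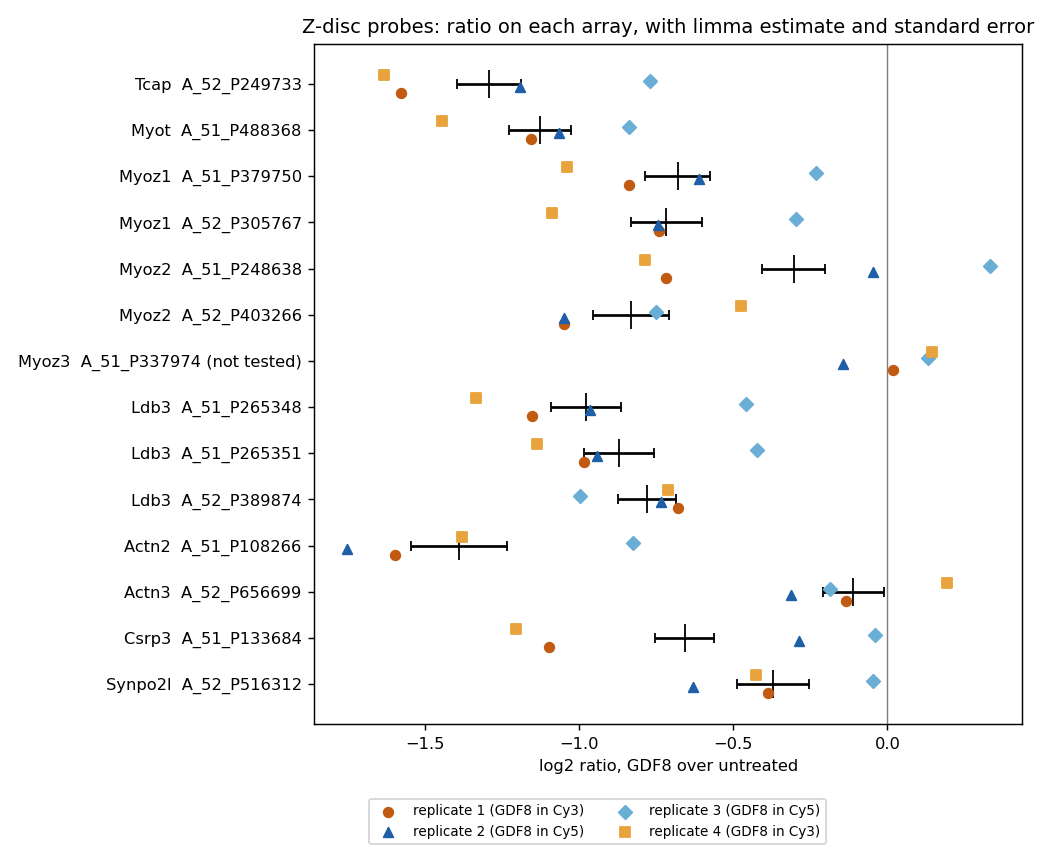
Log2 ratios of GDF8 over untreated on each of the 4 arrays (points, coloured by dye orientation) for the 14 probes of the 10 genes, with the limma estimate (vertical tick) and its standard error (bar) where tested. All 4 points lie left of 0 for 11 of the 13 tested probes, and replicate 3 lies closest to 0 for most of those that fell.

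On all 4 arrays 11 of the 13 probes gave a ratio below 0, against 7.91% of all probes tested. The exceptions were 1 of the Myoz2 probes and the Actn3 probe, which are also the 2 with a saturated channel. In 9 of the 13 the GDF8 signals all lay below the untreated signals, against 3.43% of all probes. Ranked from the deepest fall, Actn2 stood at 23 of 26577, Tcap at 36, Myot at 62 and the deepest Ldb3 probe at 116, while Synpo2l stood at 1089.

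**Figure D2:**
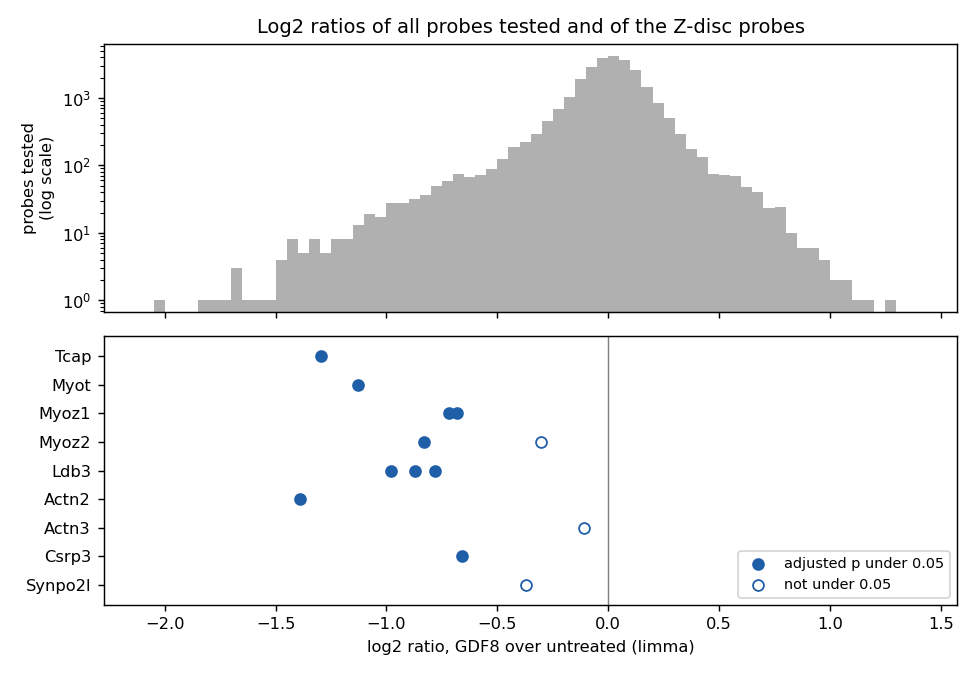
Upper panel, number of the 26577 tested probes (log scale) in each interval of log2 ratio of GDF8 over untreated. Lower panel, the 13 tested Z-disc probes by gene on the same axis, filled where the adjusted p was under 0.05. The Z-disc probes span -1.39 to -0.11, and the 10 filled points all lie at -0.66 or lower.

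Per the file headers all 4 arrays shared 1 slide and 1 scan. In red, between 9.2% and 12.1% of non-control spots were saturated, and in green between 0.745% and 5.49%. The labelled cell type was checked against marker lists. All 6 myotube markers and all 5 myoblast markers were detected in both groups. Of the macrophage and endothelial lists, Ptprc, Adgre1 and Pecam1 were not well above background in any channel, whereas Cd68, Csf1r, Kdr and Tek were so in all 4 channels of each group at 1 probe or more. Of the 8 tested myotube marker probes 7 were saturated in at least 1 channel. The exception was muscle creatine kinase, Ckm, which fell (-0.93 ± 0.17, adjusted p = 0.044). Mean log2 signal over the myotube probes was 15.42 to 15.58 in GDF8 and 15.51 to 15.85 in untreated samples. Of the 4 markers of dividing cells, Ccnb1, Mki67 and Top2a rose and Cdk1 stood at 0.54 ± 0.11 (adjusted p = 0.051). Their mean log2 signal was 12.50 to 12.82 in GDF8 and 11.77 to 12.06 in untreated samples, without overlap. The part of this shift in the Z-disc ratios was not tested.

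Alpha-actinin-2, the isoform of cardiac muscle and of most skeletal fibres, had the lowest estimate of the set, though the difference of Actn2 minus Tcap was -0.10 (SD 0.34, exact test of sign changes p = 0.625, adjusted 0.68), smaller than its spread over arrays. Without replicate 2 the order of these estimates turned, with Actn2 at -1.16 and Tcap at -1.19. For Actn2 (probe A_51_P108266) the log2 signal was 12.28, 12.26, 12.65 and 12.48 in GDF8 replicates 1 to 4 and 13.88, 14.01, 13.48 and 13.86 in the untreated samples. The groups were more than a log2 unit apart on every array except replicate 3, and they did not overlap. The ratios of -1.597, -1.76, -0.83 and -1.38 gave -1.39 ± 0.15 (adjusted p = 0.010). With GDF8 in Cy5 the mean was -1.29 and with GDF8 in Cy3 it was -1.49, a difference below the SD over arrays (0.41).

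Alpha-actinin-3, the isoform of fast glycolytic fibres, could not be measured as well. The Actn3 probe A_52_P656699 was saturated in 2 of 4 GDF8 and 3 of 4 untreated channels, with the raw mean signal stopped at about 65261. A saturated spot holds only a lower limit of its signal. Its ratios were -0.13, -0.31, -0.18 and 0.19, the groups overlapped, and the estimate was -0.11 ± 0.10 (adjusted p = 0.83). Because of the saturation, no difference between Actn2 and Actn3 is given. The non-muscle alpha-actinins did not pass, with Actn1 at 0.10 ± 0.09 (adjusted p = 0.82) and Actn4, saturated in 7 of 8 channels, at 0.05 ± 0.10. The difference of Actn2 minus Actn1 was -1.49 (SD 0.46), below 0 on 4 of 4 arrays, with p = 0.125 in the exact test of sign changes, the smallest 4 arrays allow, and 0.3 after adjustment over the 12 pairs of probes compared in this way.

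Telethonin is a small protein that joins the ends of 2 titin molecules in the Z-disc. For Tcap (probe A_52_P249733) the log2 signal was 13.76, 14.24, 14.06 and 13.72 in GDF8 replicates 1 to 4 and 15.34, 15.44, 14.84 and 15.35 in untreated samples. The untreated signal of replicate 3 stood apart at the low end, yet still lay above all GDF8 signals. Ratios were -1.58, -1.19, -0.77 and -1.63, for -1.29 ± 0.10 (adjusted p = 0.0065). The mean was -0.98 with GDF8 in Cy5 and -1.605 with GDF8 in Cy3, and no channel was saturated, although the raw red signal of untreated replicate 1 reached 62501.

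Myotilin binds alpha-actinin and filamin C and bundles actin. For Myot (probe A_51_P488368) the log2 signal was 10.15, 10.09, 10.37 and 9.41 in GDF8 replicates and 11.30, 11.15, 11.21 and 10.86 in untreated ones. Replicate 4 was the lowest in both groups, and the groups did not overlap. Its ratios of -1.16, -1.07, -0.84 and -1.44 were among the most even across arrays (SD 0.25) and gave -1.13 ± 0.10 (adjusted p = 0.0065). The difference of Tcap minus Myot was -0.17 (SD 0.20, exact p = 0.25, adjusted 0.375), smaller than its spread over arrays.

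**Figure D3:**
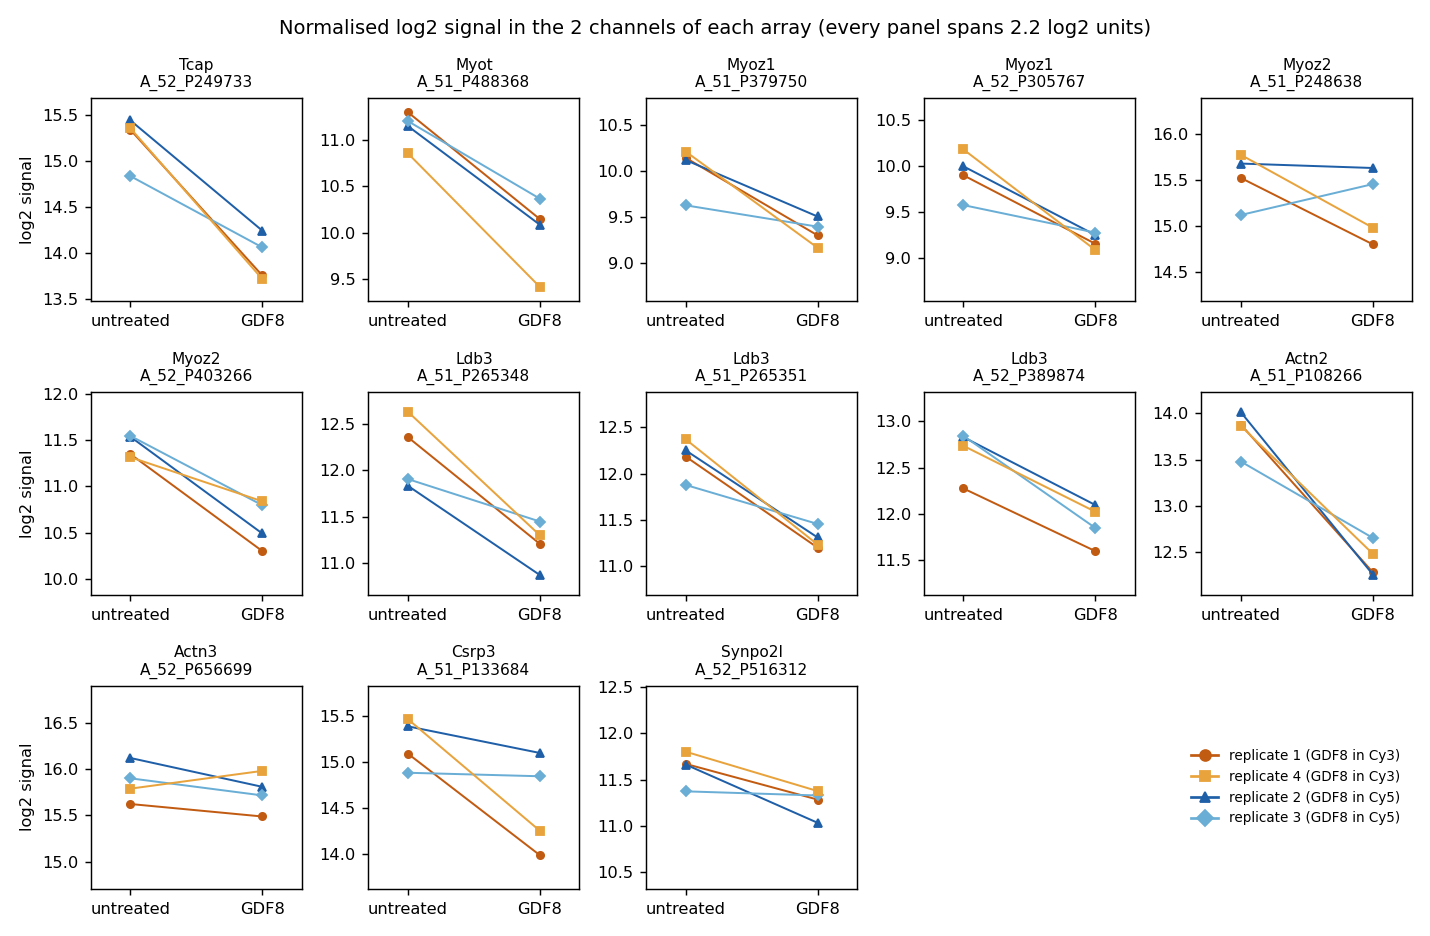
Normalised log2 signal of the untreated and the GDF8 channel of each array, joined by a line, for the 13 tested probes, each panel spanning 2.2 log2 units. Lines for Actn2, Tcap and Myot fall on all 4 arrays, whereas those of Csrp3 and of the saturated Myoz2 probe A_51_P248638 fall steeply with GDF8 in Cy3 and little or not at all with GDF8 in Cy5.

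Cypher/ZASP, the product of Ldb3, carries a PDZ domain that binds alpha-actinin and is made in several splice forms. Its 3 probes all fell without overlap and without saturation. Probe A_51_P265348 gave -1.15, -0.97, -0.46 and -1.34 on replicates 1 to 4, for -0.98 ± 0.11 (1.97-fold, adjusted p = 0.012). Probe A_51_P265351, assigned to the same RefSeq transcript NM_001039076, gave -0.98, -0.94, -0.42 and -1.14, for -0.87 ± 0.11 (1.83-fold, adjusted p = 0.014). These 2 probes followed one another from array to array, both weakest on replicate 3. Probe A_52_P389874, assigned to NM_011918, gave -0.68, -0.73, -0.996 and -0.71, for -0.78 ± 0.09 (1.72-fold, adjusted p = 0.012), and was deepest on replicate 3. The difference of A_51_P265348 minus A_52_P389874 was -0.20 (SD 0.52, exact p = 0.5, adjusted 0.6), within the spread of the arrays. Leaving out replicate 2 ended the call of probe A_51_P265351 (-0.74, adjusted p = 0.055), as did leaving out replicate 4 (-0.83, adjusted p = 0.052). With the channels taken as unpaired, A_51_P265348 (adjusted p = 0.053) and A_52_P389874 (adjusted p = 0.078) did not pass.

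The calsarcin genes differed in how well they were measured. Myoz1, the calsarcin of fast skeletal fibres, had 2 probes that gave nearly the same ratios. Probe A_51_P379750 gave -0.84, -0.61, -0.23 and -1.04, for -0.68 ± 0.10 (1.60-fold, adjusted p = 0.022). Probe A_52_P305767 gave -0.74, -0.74, -0.30 and -1.09, for -0.72 ± 0.12 (1.64-fold, adjusted p = 0.026). Neither overlapped between groups, and the probes differed from one another by 0.04 on average (SD 0.10). Both calls were lost without replicate 2 (adjusted p = 0.13 for each), without replicate 4 (adjusted p = 0.084 and 0.094) and without a dye term (adjusted p = 0.069 and 0.051).

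Myoz2, the calsarcin of heart and slow fibres, was covered by a pair of probes, 1 of which was partly saturated. Probe A_52_P403266, never saturated, gave -1.05, -1.05, -0.75 and -0.48, for -0.83 ± 0.12 (1.78-fold, adjusted p = 0.019). Its log2 signal was 10.30, 10.49, 10.80 and 10.84 in GDF8 replicates and 11.35, 11.54, 11.55 and 11.31 in untreated ones, so the groups did not overlap. Without replicate 2 the adjusted p was 0.081. Probe A_51_P248638 was saturated in the untreated channel of replicates 1 and 4 and gave -0.72, -0.05, 0.33 and -0.79. Those ratios averaged -0.75 with GDF8 in Cy3 and 0.14 with GDF8 in Cy5, the groups overlapped, and the estimate was -0.30 ± 0.10 (adjusted p = 0.26). Its dye term was 0.45 (adjusted p = 0.076). No difference between the Myoz2 probes is given, because of that saturation.

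Myoz3, the remaining calsarcin of fast fibres, was well above background in 3 of 4 GDF8 and 2 of 4 untreated channels. Its probe A_51_P337974 gave ratios of 0.02, -0.14, 0.13 and 0.14. Fitted with no filter on dim probes, the estimate was 0.04 ± 0.09 (adjusted p = 0.95). A difference was thus not detectable at this brightness.

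Calcineurin, the phosphatase that myozenins bind, acts on NFAT transcription factors. Of 11 genes for calcineurin subunits, NFAT factors and calcineurin regulators 10 were tested and none passed in limma. None of their 24 probes had an unadjusted p under 0.05 or passed the methods' t-test. A channel was saturated at 4 of the 24, where a change could be missed. Their median ratio was 0.04. Ppp3cc, a catalytic subunit, stood at 0.18 ± 0.10 at the probe with the smallest p, and Nfatc1 at 0.16 ± 0.11. The subunit Ppp3cb gave -0.15 ± 0.11. The regulator Rcan2, at a probe saturated in 2 GDF8 and 2 untreated channels, gave -0.12 ± 0.09.

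Csrp3, or muscle LIM protein, is a LIM-domain protein of the Z-disc and nucleus that is abundant in heart and slow muscle. For probe A_51_P133684 the log2 signal was 13.99, 15.10, 14.85 and 14.26 in GDF8 replicates and 15.09, 15.39, 14.88 and 15.46 in untreated ones. The groups overlapped, because GDF8 was well below untreated on replicates 1 and 4 and close to it on replicates 2 and 3. Ratios of -1.098, -0.29, -0.04 and -1.21 gave -0.66 ± 0.10 (1.58-fold, adjusted p = 0.018), with a mean of -0.16 with GDF8 in Cy5 and -1.15 with GDF8 in Cy3. The dye term was 0.49 (adjusted p = 0.061). In the authors' deposited table, made from the scanner software's processed signals, the Csrp3 ratios were -0.90, -0.92, -0.34 and -0.99, and the split by dye was smaller. The fit to that table gave -0.79 ± 0.14 (adjusted p = 0.034). The call was lost without the dye term (adjusted p = 0.24), with unpaired channels (adjusted p = 0.24), in the methods' t-test, without replicate 2 (adjusted p = 0.12) and without replicate 4 (adjusted p = 0.067). The relatives of Csrp3 outside striated muscle did not pass, with Csrp1, saturated in 2 of 8 channels, at 0.26 ± 0.09 (adjusted p = 0.29) and Csrp2, saturated in 5 of 8, at 0.15 ± 0.11.

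Synpo2l is an actin-binding protein of the synaptopodin family, and its gene is the direct neighbour of Myoz1 in the RefSeq annotation, with 0 genes between them. Its probe A_52_P516312 gave -0.39, -0.63, -0.04 and -0.43, all below 0. The log2 signal of 11.28, 11.03, 11.33 and 11.38 in GDF8 replicates overlapped with 11.67, 11.66, 11.37 and 11.80 in untreated ones, through the low untreated value of replicate 3. The estimate of -0.37 ± 0.12 did not pass (adjusted p = 0.22). The difference of its neighbour Myoz1 minus Synpo2l was -0.35 at probe A_52_P305767 (SD 0.23, below 0 on 4 of 4 arrays, exact p = 0.125, adjusted 0.3) and -0.31 at A_51_P379750 (SD 0.28, on 3 of 4 arrays, exact p = 0.25, adjusted 0.375).

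The falls were not equally deep on every array. Over the 13 probes the median ratio was -0.985 on replicate 1, -0.74 on replicate 2, -0.42 on replicate 3 and -1.09 on replicate 4, whereas over all tested probes it lay between -0.06 and 0.04. Among the 10 probes that fell, replicate 3 gave the weakest ratio in 8 (80%) and replicate 4 the deepest in 7 (70%). The same arrays held these places in 69.9% and 62.8% of all 519 probes that fell, so the order was not particular to Z-disc genes. In 6 of the 10 the untreated signal was lowest on replicate 3, against 46.8% of the 519. Without replicate 2, 5 of the 13 probes passed, and 184 of all probes fell. Without replicate 4, 6 of the 13 passed, and 211 of all probes fell. Without replicate 1 or replicate 3, 10 of the 13 passed. Tcap, Myot and Actn2 passed in each of the 15 alternatives tried, with ranges of -1.40 to -1.19, -1.28 to -1.05 and -1.62 to -1.16.

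**Figure D4:**
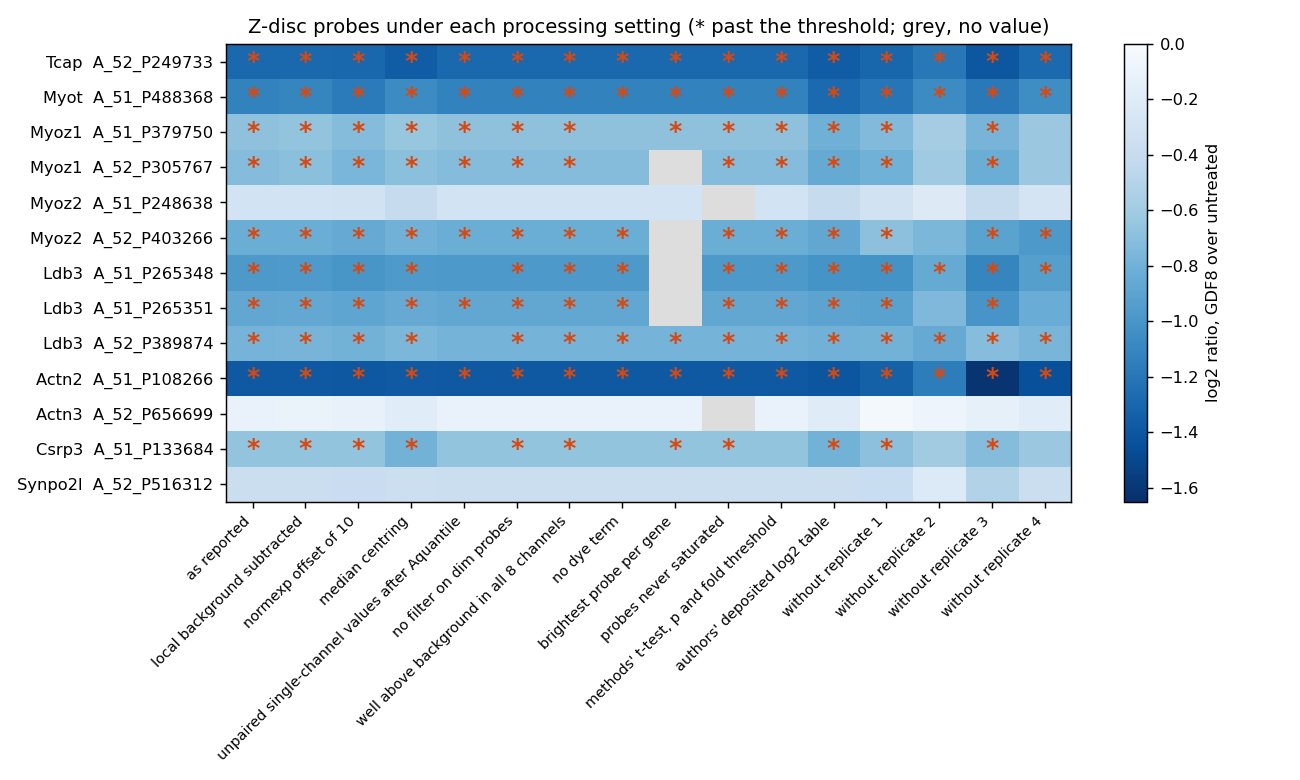
Log2 ratio of GDF8 over untreated (blue shade) of the 13 tested probes as reported and under each alternative processing, with a star where the probe passed its threshold and grey where the alternative leaves the probe out. Tcap, Myot and Actn2 carry a star in every column, and Actn3, Synpo2l and the saturated Myoz2 probe in none. For the methods' t-test the star marks an unadjusted p under 0.05 with a fold over 1.6.

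Promoter sequence was taken from RefSeq (build GRCm38.p6) for 5 of the 10 genes, Myoz2, Csrp3, Actn2, Synpo2l and Ldb3. None is shown for Tcap, Myot, Myoz1, Myoz3 and Actn3. The choice of entries left out a chromosome, so the lack of a sequence here does not show that RefSeq holds none. Sequences are shown for each of the 10 genes with a matched entry outside that chromosome, whatever its ratio. Of these 5 genes, 4 had at least 1 probe that fell, and Synpo2l did not pass. Each line holds the 250 bases before a transcript start, 5′ to 3′ on the minus strand, with capitals on E-boxes (CANNTG), which myogenic basic helix-loop-helix factors can bind, on MEF2 sites and on CArG boxes, the sites of serum response factor. All were searched on both strands.
Actn2 (chr13:12340733-12340982): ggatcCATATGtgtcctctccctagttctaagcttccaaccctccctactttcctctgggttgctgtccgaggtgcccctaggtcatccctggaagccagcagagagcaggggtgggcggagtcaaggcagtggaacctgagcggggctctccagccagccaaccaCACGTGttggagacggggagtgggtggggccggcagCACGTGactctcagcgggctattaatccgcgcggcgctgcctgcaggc
Ldb3 (chr14:34588682-34588931): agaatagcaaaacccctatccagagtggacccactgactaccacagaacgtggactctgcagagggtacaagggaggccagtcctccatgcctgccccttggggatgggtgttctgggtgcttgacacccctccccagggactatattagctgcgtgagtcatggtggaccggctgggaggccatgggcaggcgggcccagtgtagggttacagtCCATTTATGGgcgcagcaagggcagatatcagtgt
Myoz2 (chr3:123034988-123035237): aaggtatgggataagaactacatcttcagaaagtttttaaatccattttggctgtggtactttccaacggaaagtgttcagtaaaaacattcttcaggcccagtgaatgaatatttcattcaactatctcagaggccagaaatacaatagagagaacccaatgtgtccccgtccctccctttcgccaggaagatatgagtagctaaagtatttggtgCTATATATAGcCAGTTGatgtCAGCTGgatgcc
Csrp3 (chr7:48848052-48848301): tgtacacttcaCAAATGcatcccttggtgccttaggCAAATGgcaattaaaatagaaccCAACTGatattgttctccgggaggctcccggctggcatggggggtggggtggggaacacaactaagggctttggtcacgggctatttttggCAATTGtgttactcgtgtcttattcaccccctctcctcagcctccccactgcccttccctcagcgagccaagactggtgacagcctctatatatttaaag
Synpo2l (chr14:20668355-20668604): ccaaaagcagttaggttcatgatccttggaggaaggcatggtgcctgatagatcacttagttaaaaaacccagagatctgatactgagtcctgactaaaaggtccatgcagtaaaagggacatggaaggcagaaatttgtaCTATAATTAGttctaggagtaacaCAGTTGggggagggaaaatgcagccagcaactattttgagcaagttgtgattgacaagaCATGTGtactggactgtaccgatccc

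E-boxes lay in 6 of the 8 windows that RefSeq starts give for these genes, against 66.2% of 32851 mouse windows of that length. In the windows shown, Csrp3 had 4 E-boxes, Actn2 had 3, Myoz2 and Synpo2l had 2 each, and Ldb3 had 0. The Myoz2 window combined a MEF2 site that begins 33 bases before the start with E-boxes at 22 and 12 bases, the last of the form CAGCTG, which is held by 13% of all windows. Synpo2l, which did not pass, also had a MEF2 site, at 109 bases, and 2.92% of all windows held one. Ldb3 had a CArG box at 35 bases, against 1.47% of all windows. The motif CAGAC, to which SMAD proteins can bind, was in 2 of the 8 windows, neither of them shown, against 42.2% of all windows. These matches describe letters only, and no binding was measured.

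Beyond the 10 genes, 28 other genes of Z-disc proteins were tested, of which 5 fell, against 2.53% of all genes tested, and none rose, against 1.03%, in limma, with a median of -0.07 over 58 probes. Of those probes 21 had a saturated channel. An unadjusted p under 0.05 was found downwards at 16 and upwards at 6. In the methods' t-test 4 passed downwards, against 353 of all 26577 probes, and none upwards, against 87. Ankrd23, an ankyrin-repeat protein that binds titin, fell at both probes (-0.88 ± 0.13 and -0.68 ± 0.10). Cmya5, or myospryn, which binds alpha-actinin and desmin, fell at the 1 of 3 probes that could be tested (-0.67 ± 0.10, adjusted p = 0.019), which was well above background in 2 of 4 GDF8 and 4 of 4 untreated channels. Xirp1, the actin-binding protein Xin, fell (-0.58 ± 0.11, adjusted p = 0.048), and is named after its value was seen. Pdlim5, a PDZ-LIM relative of Ldb3, fell at 1 of 5 probes (-0.73 ± 0.10, adjusted p = 0.018). Without replicate 2 or without replicate 4, 1 of the 28 genes passed.

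Relatives of Z-disc genes, and other genes whose products serve adhesions and stress fibres outside sarcomeres, were taken as a further list. Of 14 tested, none fell, against 2.53% of all genes, and 2 rose, against 1.03%, in limma, with a median of 0.12 over 32 probes. Of those probes 13 had a saturated channel. Probes of Flna and Lasp1 that were saturated in all 8 channels also stood at 0.12, so the median is not read as a shift. An unadjusted p under 0.05 was found downwards at 1 probe and upwards at 8, and none passed in either direction in the methods' t-test. Lasp1, a LIM and SH3 protein of focal adhesions, rose at 1 of 5 probes (0.67 ± 0.11, adjusted p = 0.025). Flna stood at 0.41 ± 0.09 (adjusted p = 0.075) and Synpo at -0.45 ± 0.12 (adjusted p = 0.12) at the probes with the smallest p.

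**Figure D5:**
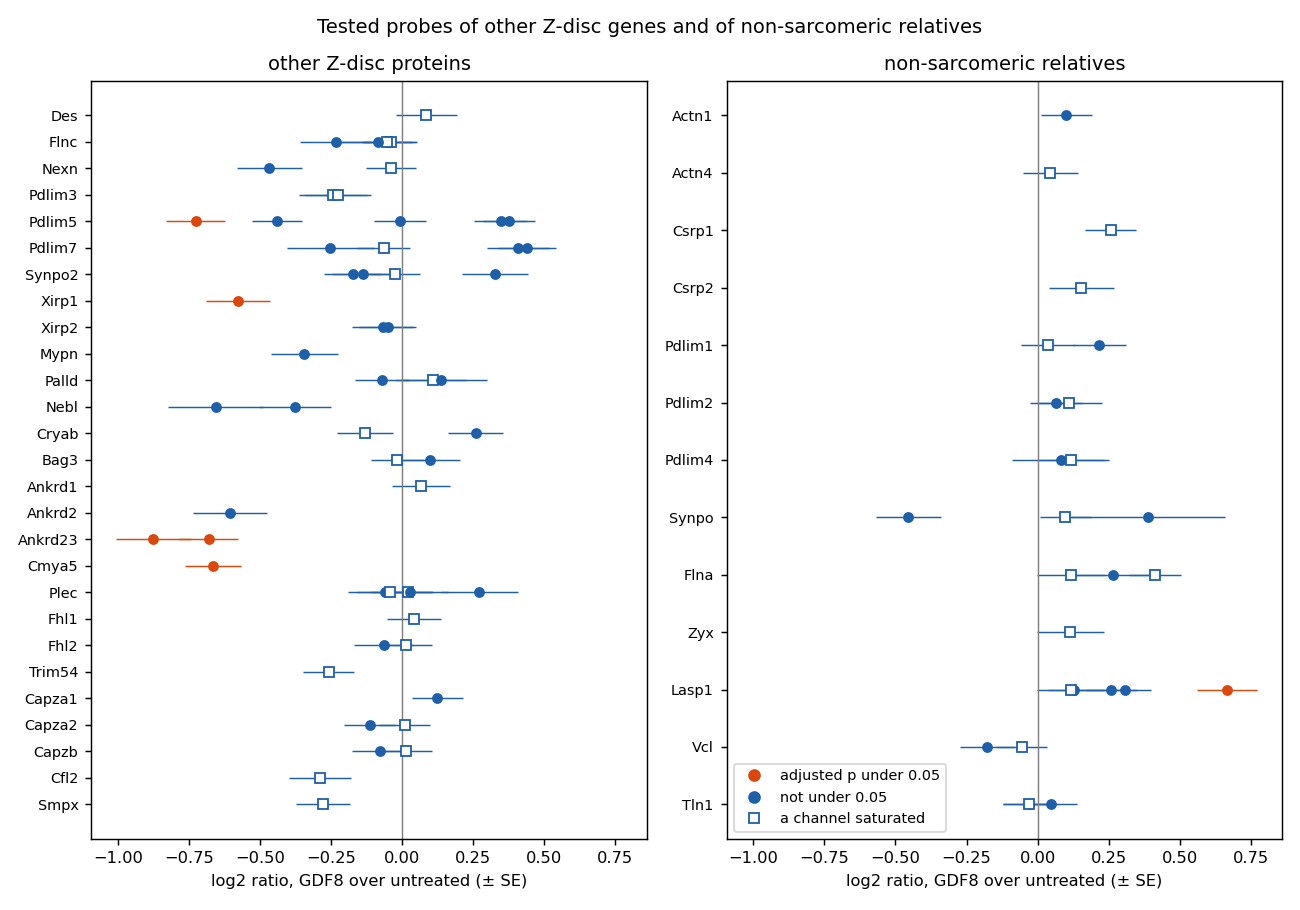
Log2 ratio of GDF8 over untreated with its standard error for the tested probes that are reported here. Other Z-disc genes are on the left, and relatives and adhesion genes outside sarcomeres on the right. Points are orange where the adjusted p was under 0.05 and open squares where a channel was saturated. Orange points lie left of 0 in the left panel and right of 0 in the right panel, and none of them is a saturated probe.

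Several Z-disc genes of the set are known for high levels in heart, so cardiac markers were read beside them. Of 5 tested, Tnni3, cardiac troponin I, fell at both probes (-1.40 ± 0.18 and -1.43 ± 0.18), and Myh6, the alpha cardiac myosin heavy chain, fell at both (-1.05 ± 0.20 and -0.97 ± 0.14). Nppb, a natriuretic peptide, stood at 0.51 ± 0.12 and 0.51 ± 0.11 at its probes, above 0 on all 4 arrays, and did not pass (adjusted p = 0.083 and 0.078), and the other 2 did not pass either. Of the 8 probes 4 had an unadjusted p under 0.05 downwards and 3 upwards. The mean log2 signal of the list was 10.60 to 10.70 in GDF8 and 10.64 to 11.35 in untreated samples. Of the smooth muscle list 4 of 5 were tested and Lmod1 fell, while Cnn1 (0.56 ± 0.13, adjusted p = 0.082) and Tagln (0.44 ± 0.09 at the probe with the smallest p, adjusted p = 0.057) lay above 0 on all 4 arrays and did not pass. Of the 5 smooth muscle probes 1 had an unadjusted p under 0.05 downwards and 2 upwards. None of the 5 myoblast, 3 adipocyte, 3 bone, 2 macrophage and 2 endothelial markers tested passed in limma. Of their probes, 1 of bone had an unadjusted p under 0.05 downwards, 1 of bone and 1 of endothelium upwards, and none passed the methods' t-test. A channel was saturated at 3 of the 5 myoblast probes, where a change could be missed.

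The probes of other genes most like Tcap over the 4 arrays, by the root mean square difference of their log2 ratios, were those of Mybpc1 (0.057), Camk2b (0.11), Krt33a (0.13), Dhrs7c (0.13) and 3830417A13Rik (0.14). Mybpc1 encodes the slow skeletal myosin-binding protein C of the A-band, and its ratios were -1.598, -1.25, -0.86 and -1.67. Camk2b encodes a calmodulin-dependent kinase subunit, with ratios of -1.44, -1.36, -0.82 and -1.64. None of the 5 probes was saturated. As likeness was measured on the same 4 arrays, each of which compares 1 pair of RNAs, it describes these arrays.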

How the data were processed

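Gene expression was measured in GDF8-treated and untreated C2C12 cells on 4 two-colour arrays of 1 slide. Per the file headers, Agilent Feature Extraction 9.1.1.1 wrote spot intensity, local background, a deposited log10 ratio of red over green, and other deposited columns with flags, for array design 014868. The authors' deposited value table equals the log2 ratio of processed GDF8 to untreated signals at 100% of 40929 single-spot probes (tolerance 0.001). Its columns were not centred (medians 0.14, -0.09, -0.11 and 0.09). No column lacked a sample.

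Intensity was corrected by normexp (offset 50) and loess in limma 3.58.1 (R 4.3.3), with control spots at weight 0 and outlier spots left out, so 646 probes lacked a value on an array. Spots of 1 probe were averaged, and every probe was tested on its own. Tested probes were well above background on all 4 arrays of either group and had a value on all 4. The fit had a GDF8 and a dye term. It was run on simulated ratios with independent errors and no saturation, so that run does not cover saturated probes. Log2 signals of single channels came from loess and Aquantile. The number of arrays limits the precision. The methods' t-test is the unpaired test of the design text (p under 0.05, fold over 1.6). Array symbols can be old, and RefSeq names of GRCm38.p6 were matched by accession for 24375 probes, by symbol for 6301 and by synonym for 2426, while 8072 kept the file's name. The array's genome build is not given in the sources used here, so probes have no coordinates.

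Members and lists were chosen with earlier results of these data known. Named are all 10 members, the 4 genes of each other list with the smallest p, and the 5 probes most like Tcap. Some single genes counted in the lists are not reported here. Alternatives covered background, normalisation, filter, dye term, probe choice, saturation, test, the deposited table and each array left out.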

Additional observations from a re-analysis of the deposited data

Results flagged for a closer look

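Among 42 groups of 4 values searched (the ratios, GDF8 signals and untreated signals of the 14 probes), 2 held a value that stood apart by Dixon's criterion for 4 samples, and chance gives about 1 in 20. The untreated log2 signal of Tcap was 14.835 on replicate 3 and 15.34 to 15.44 on the others, a gap of 0.83 of the range. The untreated log2 signal of Myoz1 at probe A_51_P379750 was 9.629 on replicate 3 and 10.12 to 10.21 on the others, a gap of 0.84 of the range. Both lie on the array with the weakest ratios of the set, and both genes passed without it.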

How the results depend on the processing

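None of the 13 tested probes reversed its sign, and 0 passed upwards, in any of the 15 alternatives. The estimate stays the same by construction with unpaired channels, another filter, the brightest or never saturated probes, no dye term and the methods' t-test. Its sign could reverse only in the remaining alternatives. Of the 13 probes 7 fell with unpaired channels and without the dye term, 9 by the methods' t-test (1 after Benjamini-Hochberg), and 10 with the deposited table. With the brightest probe per gene 6 of 9 fell, as the saturated Myoz2 probe then stood for its gene. With each replicate left out in turn, 5 to 10 member probes, 4 to 7 member genes and 1 to 5 other Z-disc genes fell, and over all probes 184 to 443 fell and 30 to 155 rose. Those fits leave 1 array in an orientation and assume that it varies like the others. Other Z-disc genes that fell numbered 2 with unpaired channels, 3 of 26 with all 8 channels above background and 3 by the methods' t-test. Over all probes, 289 fell and 64 rose with unpaired channels, 347 fell and 88 rose without the dye term, and 353 fell and 87 rose by the t-test. The cause of these shifts was not tested. Saturation limits Actn3 and 1 Myoz2 probe, and low signal limits Myoz3.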

Other observations

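In the authors' deposited table the saturated Actn3 probe gave 0.42 on replicate 1 and 0.96 on replicate 4, which carry GDF8 in Cy3. It gave -1.36 on replicate 2 and -0.82 on replicate 3, which carry GDF8 in Cy5, both in the authors' deposited table. The ratios of the same probe after loess spanned only -0.31 to 0.19. Mean Csrp3 ratios were -0.63 with GDF8 in Cy5 and -0.95 with GDF8 in Cy3 in the authors' deposited table, against -0.16 and -1.15 after loess. For the bright Myoz2 probe A_51_P248638 the corresponding means in the authors' deposited table were -0.46 and -0.35, against 0.14 and -0.75 after loess.

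The 5 tested probes of Pdlim5 did not move together. A_52_P649177 fell (-0.73 ± 0.10), while A_51_P408881 stood at 0.38 ± 0.09 (adjusted p = 0.11) and A_52_P662600 at 0.35 ± 0.09 (adjusted p = 0.14), both above 0 on all 4 arrays. A_52_P149438 gave -1.07 and -1.095 with GDF8 in Cy3 and 0.15 and 0.25 with GDF8 in Cy5, so its estimate of -0.44 ± 0.09 (adjusted p = 0.056) averages ratios of opposite sign.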
